A study of Mus musculus with 27 samples.

Results

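The UDP-glucuronosyltransferases (UGTs) described here are 10 genes, Ugt1a1, Ugt1a6b, Ugt1a9, Ugt2a3, Ugt2b1, Ugt2b5, Ugt2b34, Ugt2b35, Ugt2b36 and Ugt2b38, of the 43346 genes in the count table. They were chosen by name, as the rows whose Ensembl identifier carries one of these symbols in the GENCODE M21 annotation, and all 10 passed the filter on low counts. Hepatocyte RNA was sequenced from female mice at 12 weeks of age, with 3 libraries, called biological replicates in the labels, from each of 9 inbred strains (27 libraries). 3 strains are wild-derived, namely PWK/PhJ, CAST/EiJ and WSB/EiJ. The 6 others are classical laboratory strains: NZO/HlLtJ, NOD/ShiLtJ, DBA/2J, A/J, 129S1/SvImJ and C57BL/6J, from which the mouse reference assembly was built. All 9 groups were labelled alike in tissue, cell type, sex and age, and no treatment is named. Histone marks and DNA methylation surveyed in the same mice were not analysed here.

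UGTs are enzymes of the endoplasmic reticulum that transfer glucuronic acid from UDP-glucuronic acid to small fat-soluble molecules, which makes them soluble enough to leave in bile or urine. In hepatocytes they conjugate bilirubin, steroid hormones, bile acids, thyroid hormone and many drugs. The Ugt1a genes share a single locus in which each gene has its own promoter and first exon, spliced to a common set of later exons, while the Ugt2 genes are separate copies standing in a cluster.

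Library totals ran from 17015956 to 35078511 estimated counts. Levels are given as CPM, the customary depth-scaled count, with each library total multiplied by its TMM factor, and 1 count was worth 0.0253 to 0.0516 CPM. The 10 genes held 0.319% to 0.589% of all counts (median 0.455%) and 77.7% to 94.3% of the counts of the 21 UGT genes in the table. The labelled cell type was checked by markers fixed as lists: 10 hepatocyte markers summed to between 109249 and 334296 CPM in each library. The strain medians of this sum were 117921 CPM in CAST/EiJ, 122725 in 129S1/SvImJ, 124026 in NZO/HlLtJ, 140166 in NOD/ShiLtJ and 146319 in PWK/PhJ. They were 155169 CPM in DBA/2J, 182913 in C57BL/6J, 229513 in WSB/EiJ and 280255 in A/J. Alb alone ran from 80416 to 266109 CPM. The bearing of these differences on the UGT levels was not tested. The summed levels of 10 Kupffer cell markers (the macrophages of the liver) ran from 33.4 CPM in DBA/2J replicate 4 to 414 CPM in PWK/PhJ replicate 1. Those of 10 liver endothelial markers ran from 61.3 CPM in NZO/HlLtJ replicate 1 to 768 CPM in PWK/PhJ replicate 1. Stellate cell markers stayed at or below 57.8 CPM, with Col1a1 at 0 in some libraries, cholangiocyte markers at or below 9.64 CPM and lymphocyte markers at or below 11.4 CPM. Krt19, Krt7, Epcam, Cftr, Cd3e, Cd3d, Cd79a, Nkg7 and Gzma were among those at 0 in some libraries. DBA/2J replicate 4 was the lowest of its strain for 10 of 10 UGT genes, and PWK/PhJ replicate 1 the highest of its strain for 10 of 10. NZO/HlLtJ replicate 1 and PWK/PhJ replicate 3 were the lowest of their strains for 9, and A/J replicate 3 the highest for 9. DBA/2J replicate 4 and PWK/PhJ replicate 1 had the lowest and the highest Kupffer cell markers of all 27 libraries. Their TMM factors were 1.13 (0.959 and 0.834 in the other DBA/2J libraries) and 0.878 (1.07 and 1.12 in the other PWK/PhJ libraries). The part of other cells, of hepatocyte quality or of scaling in this was not tested.

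The 3 Ugt1a genes lie on chromosome 1 of GRCm38, on the plus strand, and end together. Ugt1a9 spans chr1:88070800-88218997, Ugt1a6b chr1:88103252-88219003 and Ugt1a1 chr1:88211959-88218997. The junction between the first coding exon and the common exon that follows it (chr1:88215044-88215175) is shown because it is where the 3 messages stop being distinguishable. Each line gives 30 bases of the gene's own first coding exon in lower case and then 30 bases of the common exon in capitals, from GENCODE M21 transcripts.
Ugt1a9: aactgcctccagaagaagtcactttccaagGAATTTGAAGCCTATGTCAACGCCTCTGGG
Ugt1a6b: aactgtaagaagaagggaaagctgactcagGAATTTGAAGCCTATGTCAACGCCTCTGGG
Ugt1a1: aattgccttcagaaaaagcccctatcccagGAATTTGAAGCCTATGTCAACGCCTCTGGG

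From there to the stop codon the coding sequences were identical: the last 741 bases for Ugt1a1 and Ugt1a6b, and the last 740 bases for either of them and Ugt1a9, 46.0% to 46.6% of each coding sequence. A read from this stretch cannot name its gene. Of the 100-base windows of each gene's transcripts, 77.4% occurred also in transcripts of another gene for Ugt1a1, 71.5% for Ugt1a6b and 58.5% for Ugt1a9. In each case the other genes included the 8 other Ugt1a genes.

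The 7 Ugt2 genes lie on chromosome 5 of GRCm38 within a single cluster. In order along the chromosome these are Ugt2b34 (chr5:86889767-86906937), Ugt2b1 (chr5:86916638-86926530), Ugt2b35 (chr5:87000860-87013275), Ugt2b36 (chr5:87065927-87092555), Ugt2b5 (chr5:87124960-87140318), Ugt2a3 (chr5:87324972-87337195) and Ugt2b38 (chr5:87409942-87424203). Ugt2b35 is on the plus strand and the others are on the minus strand. Ugt2b5 and Ugt2b38 are close copies, with 97.1% identical coding sequence. Ugt2b35 and Ugt2b36 were 86.8% to 88.8% identical to that pair and to each other, and the remaining pairs of Ugt2 genes were 68.6% to 76.3% identical. Windows of 100 bases shared with another gene made up 24.7% of Ugt2b5, 24.2% of Ugt2b38, 0.595% of Ugt2a3 and 0.285% of Ugt2b34. No window of Ugt2b1, Ugt2b35 or Ugt2b36 was shared.

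The deposited counts carried the mark of this sharing. A count that is not whole (by more than 1e-06) shows that reads were divided between genes or transcripts. Ugt1a1, Ugt1a6b, Ugt1a9, Ugt2b5 and Ugt2b38 had a non-whole count in 27 of 27 libraries, and Ugt2a3 and Ugt2b34 in 25 of 27. Ugt2b36 had one in 1 library, and Ugt2b1 and Ugt2b35 had none. In the whole table, 11.1% of the values were not whole, in 9334 genes. The levels of the 5 genes with 27 non-whole counts are therefore uncertain in how reads were divided, and the levels of Ugt2b1 and Ugt2b35 do not rest on such a division. The non-whole count of Ugt2b36 was in A/J replicate 2.

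Promoters of 4 members are shown, chosen because the levels of their genes parted between strains, Ugt1a1 from Ugt1a9 and Ugt2b5 from Ugt2b38. All windows are from the mouse reference assembly, and promoter sequences of the other strains were not read. The windows therefore cannot show a difference between strains, and their part in the strain differences was not tested. Each line is the 250 bases before the gene's start in RefSeq, from the promoter table of GRCm38.p6, and 9 of the 10 genes were matched there (not Ugt1a6b). Capitals mark every stretch that ties for closest to the palindromic consensus motif of the liver factors of the HNF1 family, searched on both strands. Distances are counted from the RefSeq start, which for Ugt1a9 and Ugt2b5 lies upstream of the GENCODE start given above. The windows are chr1:88070529-88070778 (plus strand) for Ugt1a9, chr1:88211709-88211958 (plus strand) for Ugt1a1, chr5:87140341-87140590 (minus strand) for Ugt2b5 and chr5:87424204-87424453 (minus strand) for Ugt2b38.
Ugt1a9: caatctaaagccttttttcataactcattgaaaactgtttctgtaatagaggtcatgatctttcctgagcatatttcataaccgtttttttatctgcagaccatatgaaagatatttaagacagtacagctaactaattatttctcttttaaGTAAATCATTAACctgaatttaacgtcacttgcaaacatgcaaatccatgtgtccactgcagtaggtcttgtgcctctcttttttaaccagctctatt
Ugt1a1: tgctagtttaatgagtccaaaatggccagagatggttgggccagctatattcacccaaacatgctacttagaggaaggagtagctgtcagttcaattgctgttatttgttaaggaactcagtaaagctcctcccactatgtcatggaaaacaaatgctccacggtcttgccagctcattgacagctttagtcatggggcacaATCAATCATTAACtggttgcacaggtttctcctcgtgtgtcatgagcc
Ugt2b5: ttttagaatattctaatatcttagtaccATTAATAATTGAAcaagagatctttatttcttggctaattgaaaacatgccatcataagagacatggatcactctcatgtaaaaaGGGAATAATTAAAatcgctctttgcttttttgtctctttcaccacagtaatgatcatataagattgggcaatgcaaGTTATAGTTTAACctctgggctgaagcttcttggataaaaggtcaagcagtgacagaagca
Ugt2b38: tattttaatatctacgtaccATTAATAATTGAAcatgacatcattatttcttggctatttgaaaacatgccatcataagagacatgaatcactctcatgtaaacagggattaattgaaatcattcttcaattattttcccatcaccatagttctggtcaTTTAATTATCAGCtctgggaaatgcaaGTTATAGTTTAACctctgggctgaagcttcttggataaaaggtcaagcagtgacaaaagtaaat

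The motif has 12 defined letters and 1 free one, and no other motif was searched. With at most 1 mismatch it was found in the window of Ugt1a9, 98 to 86 bases before the RefSeq start, and in 0.189% of 32851 promoter windows of that table. With at most 2 mismatches it was found also for Ugt1a1, 48 to 36 bases before the start, and for Ugt2a3, 54 to 42 bases before, against 1.24% of all windows. At 3 mismatches all 9 matched members had it, against 7.58% of all windows, and Ugt2b5 and Ugt2b38 each had 3 such stretches. The matches are stretches of letters and were not tested for binding. The windows of Ugt2b5 and Ugt2b38 were 82.4% identical, and the next most alike pair of members, Ugt2b36 and Ugt2b38, were 62.2% identical.

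All 10 genes differed among the 9 strains (edgeR's quasi-likelihood test over all strains, Benjamini-Hochberg adjusted p under 0.05), where 74.2% of the 14482 genes tested were called. The smallest adjusted p in edgeR was that of Ugt2b5 at 8.99e-09, followed by Ugt2a3 at 1.1e-07, Ugt1a9 at 2.51e-07 and Ugt1a1 at 3.92e-07. Ugt2b34 followed at 1.92e-05 and Ugt2b36 at 0.000173 by the same edgeR test. Ugt1a6b stood at 0.000716, Ugt2b35 at 0.00326, Ugt2b1 at 0.00327 and Ugt2b38 at 0.0037 in edgeR. With the replicate number as a block, Ugt2b35 missed the threshold (edgeR adjusted p = 0.0557). By the size of the F statistic the members ranked between place 900 and place 6972 of 14482. The range of strain means was 0.97 (Ugt2b36) to 2.21 (Ugt1a9) on the log2 scale, against a median of 1.16 over all tested genes. In these bulk samples, a lower level can come from fewer cells of a type or from less RNA per cell, and these cannot be told apart.

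Per kilobase of the longest transcript, Ugt1a1 (428 CPM per kb, mean of the strain means) and Ugt2b5 (407 CPM per kb) had the highest levels. Ugt2b36 followed at 345 CPM per kb, Ugt1a9 at 293, Ugt2b1 at 192, Ugt2b34 at 149.8 and Ugt2a3 at 133 CPM per kb. Ugt1a6b at 45.4, Ugt2b35 at 32.1 and Ugt2b38 at 10.6 CPM per kb were the lowest.

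**Figure D1:**
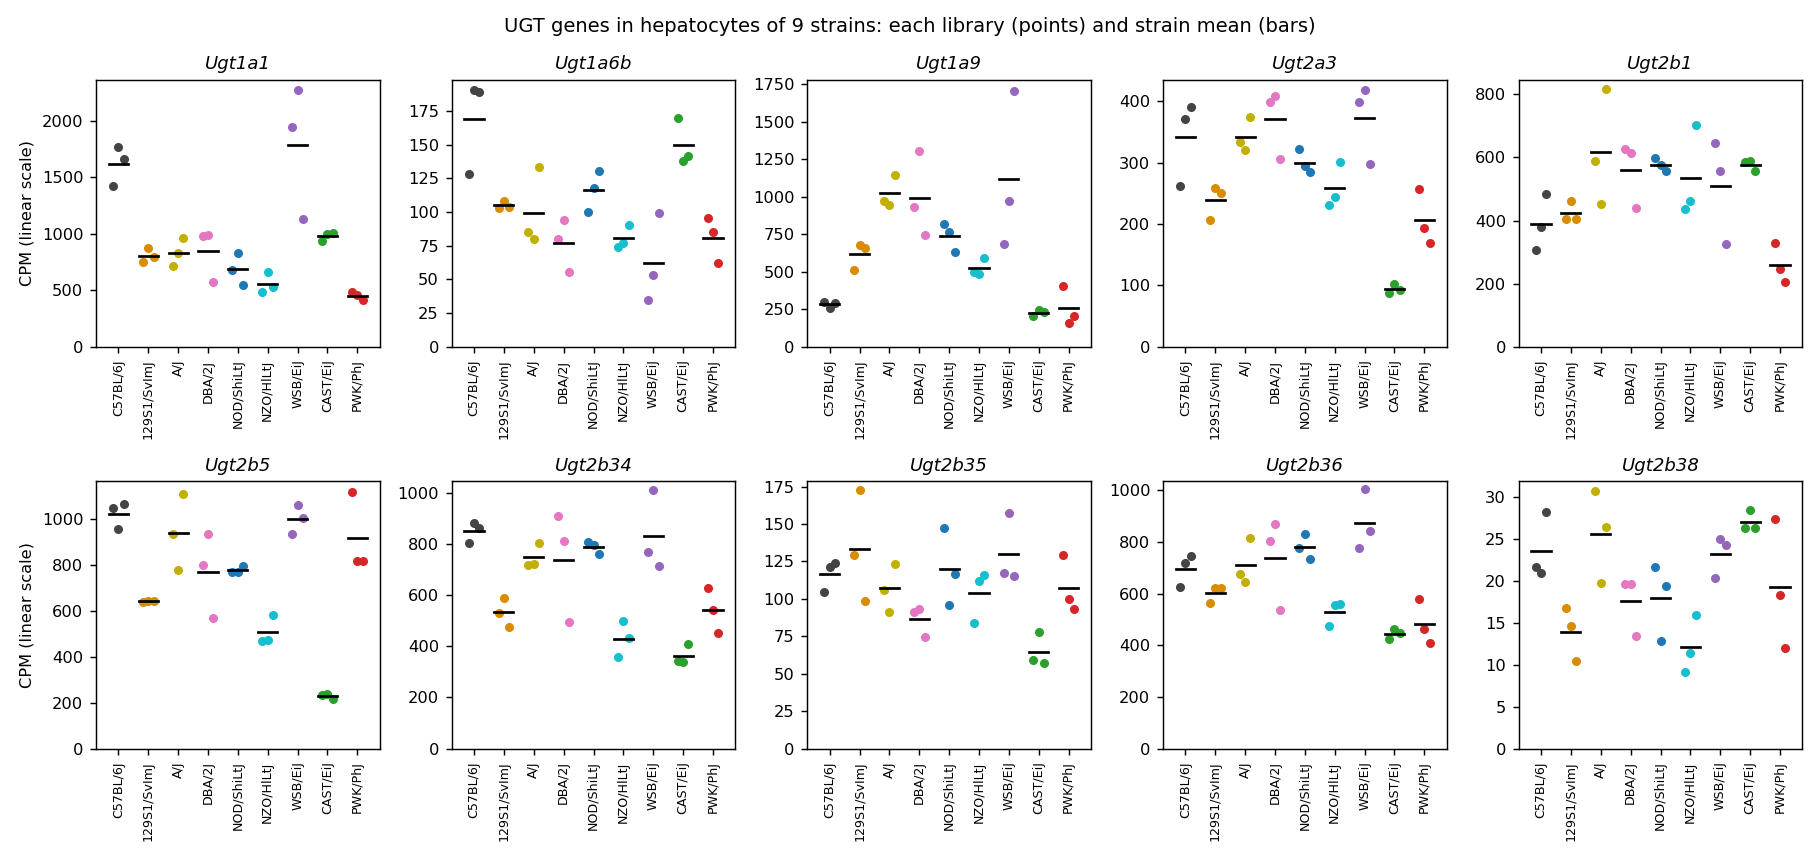
Level of each of the 10 UGT genes (CPM, linear scale starting at 0, a scale for each gene) in the 27 libraries, as points coloured by strain in order of replicate number, with the mean of each strain as a bar. CAST/EiJ lies below every other strain for Ugt2b5 and Ugt2a3, and C57BL/6J is high for Ugt1a1 but low for Ugt1a9.

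Ugt1a1 encodes the enzyme that conjugates bilirubin, the breakdown product of heme. It was highest in WSB/EiJ (1128, 1948 and 2270.3 CPM) and C57BL/6J (1420.3, 1658 and 1768 CPM), and these strains overlapped. CAST/EiJ came next with 933, 1002 and 1004 CPM, below every C57BL/6J library. DBA/2J had 572, 985 and 988 CPM and A/J had 712, 829 and 961 CPM. The middle of the order held no separated neighbours: 129S1/SvImJ had 748, 795 and 874 CPM and overlapped A/J and DBA/2J. NOD/ShiLtJ had 548, 677 and 831 CPM, and NZO/HlLtJ had 481, 527 and 666 CPM. PWK/PhJ was lowest, with 417, 458 and 483 CPM, a 3.94-fold difference between the highest and the lowest strain mean. Against C57BL/6J, Ugt1a1 was lower in 7 of 8 strains (edgeR), by 0.72 ± 0.23 (SE, log2, adjusted p = 0.0142) in CAST/EiJ up to 1.83 ± 0.23 in PWK/PhJ (adjusted p = 1.57e-06), where 10.6% of all gene tests over the 8 comparisons with C57BL/6J were called lower. Under some alternatives described with each strain the calls in CAST/EiJ, 129S1/SvImJ and DBA/2J were lost, and with Kupffer and endothelial marker levels as covariates all 3 were (edgeR adjusted p of 0.608, 0.431 and 0.105), with log2 differences of -0.22, -0.46 and -0.59 in place of -0.72, -1.004 and -0.93. No library of those 7 strains reached the C57BL/6J libraries. In WSB/EiJ the difference was 0.14 ± 0.22 on the log2 scale (edgeR adjusted p = 0.751).

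Ugt1a9 encodes an enzyme for bulky phenols and its order of strains was unlike that of Ugt1a1. WSB/EiJ had 687, 969 and 1702 CPM, A/J had 947, 971 and 1145 CPM, and DBA/2J had 744, 934 and 1305 CPM. These strains overlapped one another. NOD/ShiLtJ had 632, 764 and 820.2 CPM, 129S1/SvImJ had 515, 657 and 679 CPM, and NZO/HlLtJ had 486, 497 and 593 CPM. Below them, with no overlap, stood C57BL/6J at 261, 289 and 297 CPM. CAST/EiJ had 203, 233 and 244 CPM. PWK/PhJ had 159, 202 and 408 CPM, and its high value was replicate 1, the library with the most Kupffer and endothelial markers. Ugt1a9 was higher than in C57BL/6J in 6 strains (edgeR), from 0.90 ± 0.29 (SE, log2, adjusted p = 0.0236) in NZO/HlLtJ to 1.99 ± 0.30 (adjusted p = 2.67e-05) in WSB/EiJ, where 9.52% of all gene tests over the 8 comparisons were called higher. In A/J the difference was 1.85 ± 0.30 (edgeR adjusted p = 9.67e-05) and in DBA/2J 1.82 ± 0.30 (edgeR adjusted p = 0.000114). It was -0.32 ± 0.29 in CAST/EiJ (edgeR adjusted p = 0.4) and -0.14 ± 0.29 in PWK/PhJ (edgeR adjusted p = 0.768). The NZO/HlLtJ call was lost without C57BL/6J replicate 2, C57BL/6J replicate 4 or NZO/HlLtJ replicate 3 (edgeR adjusted p up to 0.0792), with log2 differences of 0.80 to 0.91.

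Ugt1a6b encodes an enzyme for small flat phenols. It was highest in C57BL/6J (129, 189 and 191 CPM) and CAST/EiJ (138, 141 and 169.6 CPM), which overlapped. Its neighbour Ugt1a6a, also with non-whole counts in 27 libraries, instead had its lowest mean in CAST/EiJ. That mean was 66.8 CPM, against 201 CPM in C57BL/6J (log2 difference -1.59, edgeR adjusted p = 8.57e-05). The division of reads between Ugt1a6a and Ugt1a6b was not tested. Ugt1a6b was lowest in WSB/EiJ, with 34.6, 53.4 and 99.2 CPM, where the highest value was replicate 4. Against C57BL/6J it was lower in WSB/EiJ by 1.44 ± 0.28 on the log2 scale (edgeR adjusted p = 0.000591), in DBA/2J by 1.14 ± 0.28 (edgeR adjusted p = 0.00693), in NZO/HlLtJ by 1.07 ± 0.27 (edgeR adjusted p = 0.00602) and in PWK/PhJ by 1.07 ± 0.27 (edgeR adjusted p = 0.00521). The other strains lay between, with means of 99.5 CPM in A/J, 105 CPM in 129S1/SvImJ and 116 CPM in NOD/ShiLtJ. Against C57BL/6J the log2 differences in these 3 were -0.77, -0.69 and -0.55, with edgeR adjusted p of 0.0931, 0.0717 and 0.176. In 129S1/SvImJ a lower level was called with DESeq2 (adjusted p = 0.0484), and in edgeR with no filter on low counts (0.0439), in the fit to the 6 libraries of the pair (0.0301) and without C57BL/6J replicate 1 or WSB/EiJ replicate 2 or 4 (0.0307 to 0.0416). In A/J it was called in edgeR with unscaled library totals (0.0124), with no filter (0.0411) and without A/J replicate 3 or WSB/EiJ replicate 2 or 4 (0.0313 to 0.0451). The DBA/2J call was lost without DBA/2J replicate 4 (log2 difference -0.96, edgeR adjusted p = 0.0585). The NZO/HlLtJ call was lost with the marker covariates, where the log2 difference was -0.89 in place of -1.07 (edgeR adjusted p = 0.159).

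Because reads of the common exons can be moved between these genes, their shares of all counts of the Ugt1a locus were compared, with 9 Ugt1a genes in the sum. Ugt1a1 held 61.0% ± 3.51 (SD, n = 3) of the locus in C57BL/6J and 65.4% ± 1.98 in CAST/EiJ. In PWK/PhJ, NZO/HlLtJ, A/J, NOD/ShiLtJ, DBA/2J and 129S1/SvImJ its mean share was 38.7% to 47.2%. Ugt1a9 held 10.8% ± 2.38 in C57BL/6J and 15.1% ± 1.27 in CAST/EiJ, but 48.6% ± 2.27 in A/J and 47.2% ± 4.34 in DBA/2J. Ugt1a5, a neighbour outside the 10 genes, held 14.1% ± 4.30 in C57BL/6J and 16.9% ± 2.10 in PWK/PhJ, and at most 4.49% on average in the other strains.

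WSB/EiJ did not form a single group in these shares. Ugt1a1 held 66.5% and 65.4% of the locus in replicates 2 and 3 and 35.9% in replicate 4, where Ugt1a9 held 54.2% against 23.4% and 27.9%. The ratio of Ugt1a1 to Ugt1a9 counts was 2.83 and 2.34 in replicates 2 and 3 and 0.663 in replicate 4. Without replicate 4, Ugt1a9 in WSB/EiJ was still higher than in C57BL/6J, at 1.55 in place of 1.99 on the log2 scale, and its mean share of the locus was 25.7% in place of 35.2%. Ugt1a6b moved by the same removal to -1.94 from -1.44. In PWK/PhJ, replicate 1 had an Ugt1a9 share of 31.5% against 16.1% and 22.2%.

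**Figure D2:**
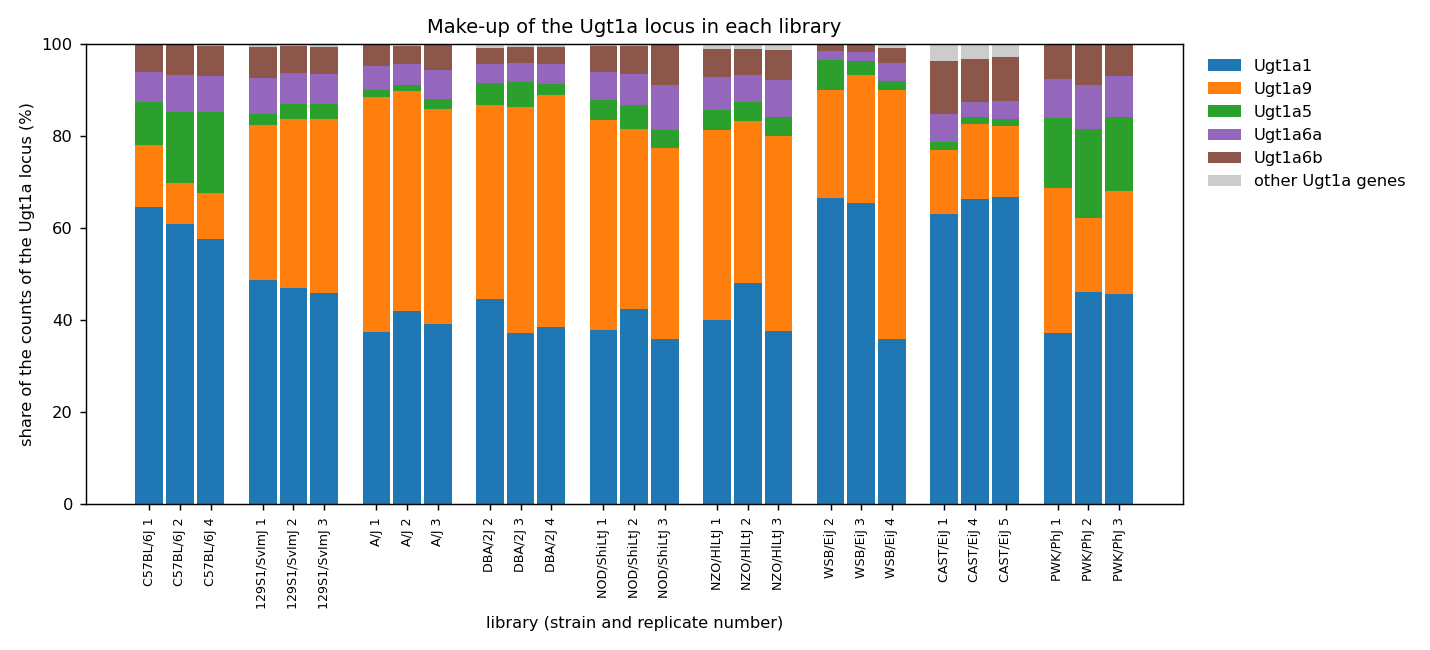
Share of the estimated counts of the Ugt1a locus (%, vertical axis) held by 5 genes and by the other Ugt1a genes together, for each library (bars), grouped by strain. Ugt1a9 takes 8.97% to 13.5% of the locus in C57BL/6J and 33.6% to 54.2% in the libraries of NZO/HlLtJ, A/J, NOD/ShiLtJ, 129S1/SvImJ and DBA/2J and in WSB/EiJ replicate 4.

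A sum over the locus does not depend on how reads were divided within it. The Ugt1a sum was highest in WSB/EiJ at 3181 ± 273 CPM (SD, n = 3), followed by C57BL/6J at 2663 ± 401 CPM, and lowest in PWK/PhJ at 1066 ± 202 CPM, a 2.98-fold range. The sum over the Ugt2 cluster was highest in WSB/EiJ at 3758 ± 460 CPM, where C57BL/6J had 3454 ± 269 CPM, and lowest in CAST/EiJ at 1836 ± 34.95 CPM, a 2.05-fold range. With library totals that were not scaled, the WSB/EiJ to CAST/EiJ ratio of the Ugt2 sum was 1.43 and NOD/ShiLtJ had the highest sum. The WSB/EiJ to PWK/PhJ ratio of the Ugt1a sum was then 2.39. PWK/PhJ, CAST/EiJ and NZO/HlLtJ had the 3 lowest sums at both loci: 1066, 1497 and 1329 CPM for Ugt1a and 2544, 1836 and 2382 CPM for Ugt2. For Ugt2, 129S1/SvImJ was close to PWK/PhJ at 2587 ± 153 CPM, and their libraries overlapped (2489 to 2764 against 2161 to 3079 CPM).

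The Ugt2 enzymes act on steroids, bile acids and many drugs. Ugt2b5, the Ugt2 member with the highest level per kilobase, had the smallest adjusted p among the 10 for the strain effect. C57BL/6J had 956, 1048 and 1068 CPM, WSB/EiJ had 934, 1004 and 1061 CPM, and A/J had 780.45, 936 and 1110.1 CPM. These 3 strains overlapped. PWK/PhJ had 816, 816 and 1119.7 CPM, NOD/ShiLtJ had 769.6, 770.1 and 797 CPM, and DBA/2J had 569, 799 and 936 CPM. Lower means were found in 129S1/SvImJ, with 638, 644 and 645 CPM, and NZO/HlLtJ, with 467, 473 and 582 CPM. CAST/EiJ had 214, 234 and 238 CPM, less than any library of another strain. Ugt2b5 was called lower in CAST/EiJ than in each of the 8 other strains in edgeR, where 17.3% of all gene tests over these 8 comparisons were called lower. Against C57BL/6J the difference was -2.16 ± 0.18 on the log2 scale (edgeR adjusted p = 7.74e-10), and it was -2.21 to -2.12 with any 1 library left out.

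Ugt2b38, its close copy, did not follow. It had 26.3, 26.4 and 28.5 CPM in CAST/EiJ, the highest strain mean, and 20.98, 21.6 and 28.3 CPM in C57BL/6J, a difference of 0.20 ± 0.26 on the log2 scale (edgeR adjusted p = 0.572). Its level was 10.6 CPM per kb against 407 for Ugt2b5, with which it shares reads. It was lowest in NZO/HlLtJ, with 9.15, 11.4 and 16.0 CPM, and in 129S1/SvImJ, with 10.4, 14.6 and 16.8 CPM. Both were below C57BL/6J (edgeR), by 0.96 ± 0.26 (adjusted p = 0.00851) and 0.76 ± 0.26 (adjusted p = 0.0391), with no overlap of libraries. The 129S1/SvImJ call was lost without C57BL/6J replicate 2 or 4 or 129S1/SvImJ replicate 2 or 3, and the NZO/HlLtJ call without C57BL/6J replicate 4 or NZO/HlLtJ replicate 1 (edgeR adjusted p up to 0.186 and 0.058). Both were lost with unscaled library totals (edgeR adjusted p of 0.0656 in NZO/HlLtJ and 0.183 in 129S1/SvImJ), with log2 differences of -0.56 and -0.42. Both missed the threshold also with the marker covariates (0.189 and 0.403), where the log2 differences were -0.79 and -0.67, in place of -0.96 and -0.76. With a replicate block the 129S1/SvImJ call was lost (log2 difference -0.75, edgeR adjusted p = 0.0631).

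Ugt2a3, a member of the Ugt2a branch, also set CAST/EiJ apart. CAST/EiJ had 87.2, 92.0 and 102 CPM, and no library of another strain was below 169.6 CPM. The next strain up was PWK/PhJ, with 169.6, 194 and 258 CPM, 1.14 higher than CAST/EiJ on the log2 scale (edgeR adjusted p = 3.17e-05). 129S1/SvImJ had 206, 251 and 258 CPM, NZO/HlLtJ had 231, 244 and 302 CPM, and NOD/ShiLtJ had 285, 294 and 322 CPM. The upper strains overlapped: C57BL/6J had 261, 372 and 390.1 CPM, A/J 319.8, 333 and 375 CPM, DBA/2J 306, 399 and 409 CPM, and WSB/EiJ 298, 399 and 418.5 CPM. Like Ugt2b5, it was called lower in CAST/EiJ than in 8 of 8 strains (background as for Ugt2b5), by 1.86 ± 0.19 on the log2 scale against C57BL/6J (edgeR adjusted p = 2.52e-08).

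Ugt2b34 followed the same lines with a smaller range. C57BL/6J had 804, 861 and 881 CPM, WSB/EiJ 712, 769 and 1009.9 CPM and NOD/ShiLtJ 759, 795 and 806 CPM, and these overlapped. CAST/EiJ had 339, 341 and 408 CPM and NZO/HlLtJ had 358, 431 and 499 CPM. Between the upper and the lower strains stood PWK/PhJ, with 449.9, 541 and 628 CPM, and 129S1/SvImJ, with 475, 530.3 and 589.8 CPM. The differences from C57BL/6J (edgeR) were -1.23 ± 0.19 in CAST/EiJ (adjusted p = 2.19e-05) and -0.98 ± 0.19 in NZO/HlLtJ (adjusted p = 0.000604), with no overlap.

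Ugt2b36 had the smallest range of the 10 genes, 1.97-fold between WSB/EiJ (776, 844 and 1004 CPM) and CAST/EiJ (423, 448 and 461 CPM). C57BL/6J had 626, 718 and 745 CPM and PWK/PhJ had 408, 463 and 577 CPM. CAST/EiJ and PWK/PhJ, unlike the other wild-derived strain WSB/EiJ, lay below every C57BL/6J library. The differences were 0.65 ± 0.17 (edgeR adjusted p = 0.00397) and 0.53 ± 0.17 (edgeR adjusted p = 0.0223) on the log2 scale. The PWK/PhJ call was lost without C57BL/6J replicate 2 or 4 or PWK/PhJ replicate 2 or 3 (edgeR adjusted p up to 0.113), and with no filter on low counts (0.0617).

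Ugt2b35 and Ugt2b1 are the members whose counts were whole in all libraries. Ugt2b35 had 57.2, 59.4 and 77.7 CPM in CAST/EiJ, called lower than 7 of the 8 other strains in edgeR (17.3% of all gene tests in these 8 comparisons). In C57BL/6J it had 105, 121 and 124 CPM, so the log2 difference was -0.85 ± 0.21 (edgeR adjusted p = 0.00219). With the marker covariates it was -0.73 and missed the threshold (edgeR adjusted p = 0.0703). In the remaining strains its mean ran from 86.3 CPM in DBA/2J to 134 CPM in 129S1/SvImJ. 

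Ugt2b1 stood apart in PWK/PhJ and not in CAST/EiJ. PWK/PhJ had 205, 245 and 328 CPM, lower than 7 of 8 strains in edgeR (15.1% of all gene tests in its 8 comparisons) and not separated from C57BL/6J, which had 306, 379 and 485 CPM (log2 difference -0.59 ± 0.25, edgeR adjusted p = 0.0823). It was called lower than in C57BL/6J with the marker covariates (log2 difference -0.95, edgeR adjusted p = 0.0118), without C57BL/6J replicate 1 (0.0426) and without PWK/PhJ replicate 1 (0.0312). CAST/EiJ had 556, 587 and 589 CPM, above all C57BL/6J libraries, a log2 difference of 0.56 ± 0.25 that missed the threshold (edgeR adjusted p = 0.0735). A/J had the highest mean with 452, 588 and 816 CPM, and its libraries overlapped those of every strain but PWK/PhJ. The CAST/EiJ difference was called without C57BL/6J replicate 4 (0.75, edgeR adjusted p = 0.0442), without WSB/EiJ replicate 4 (0.57, 0.0474) and in the fit to the 6 libraries of the pair (0.57, 0.0419). With library totals that were not scaled, Ugt2b1 was called higher than in C57BL/6J in NOD/ShiLtJ, NZO/HlLtJ and CAST/EiJ (edgeR adjusted p of 0.00845, 0.00293 and 0.00104).

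**Figure D3:**
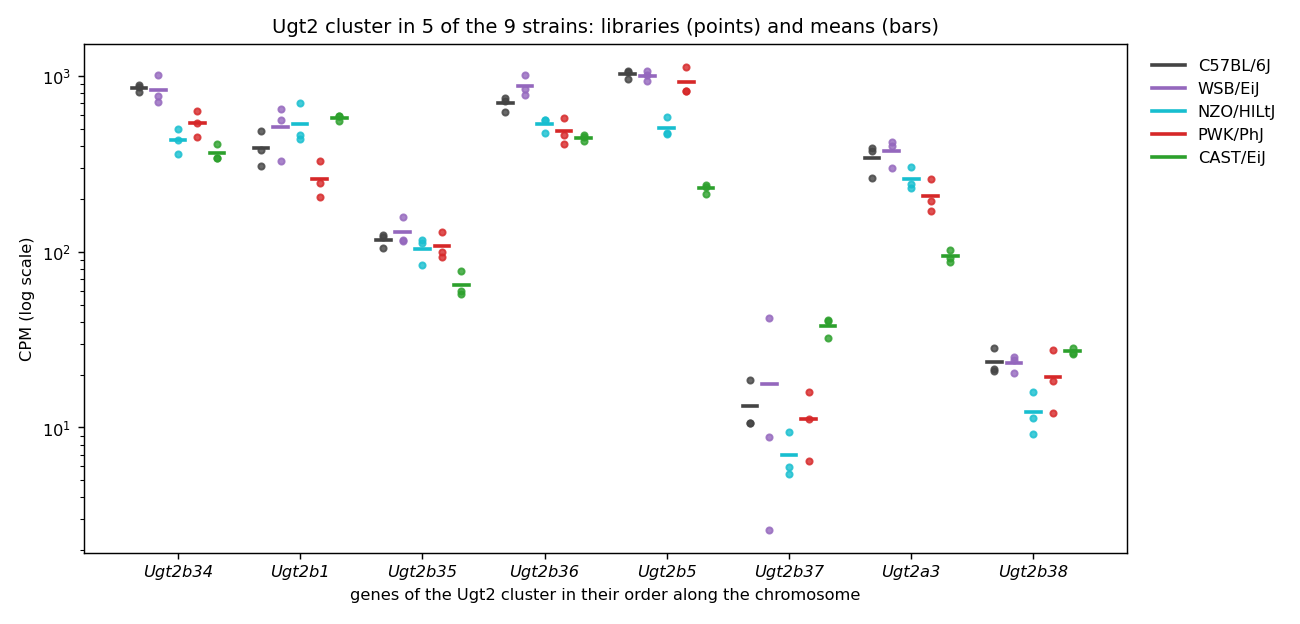
Levels (CPM, log scale) of 8 genes of the Ugt2 cluster, in their order along the chromosome, in 5 of the strains: libraries as points and strain means as bars. CAST/EiJ has the lowest mean of the 5 strains for Ugt2b34, Ugt2b35, Ugt2b36, Ugt2b5 and Ugt2a3, and the highest for Ugt2b1, Ugt2b37 and Ugt2b38.

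Within each gene's order of strain means, 4 of the 80 pairs of neighbouring strains were called in edgeR, where 23.4% of all gene tests over the 36 pairs of strains were called. These were Ugt1a1 between C57BL/6J and CAST/EiJ, Ugt1a9 between NZO/HlLtJ and C57BL/6J, Ugt2a3 between PWK/PhJ and CAST/EiJ, and Ugt2b5 between NZO/HlLtJ and CAST/EiJ. The 23.4% covers all pairs and not neighbours alone, so it is not a like background for them. Which strains are neighbours was set by the same values, so the count of 4 describes the order only. Over all 36 pairs, Ugt1a9 was called in 22, Ugt1a1 in 20, Ugt2a3 and Ugt2b5 in 18 each, and Ugt2b34 in 17. Ugt2b36 was called in 13, Ugt1a6b in 10, Ugt2b35 and Ugt2b38 in 8 each, and Ugt2b1 in 7.

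All comparisons with C57BL/6J share its 3 libraries, so they are given side by side and their likeness is not read. Of the 80 tests of a member in a strain, 32 were called in edgeR, 6 higher (all Ugt1a9) and 26 lower, where 20.1% of all gene tests over these 8 comparisons were called (9.52% higher and 10.6% lower). With unscaled library totals the split was 11 higher and 22 lower, and with Kupffer and endothelial markers as covariates 8 higher and 15 lower. The shares of all genes called higher or lower in those fits are not reported here, so these splits describe the members only. Leaving the scaling factors out shifts all log2 differences from C57BL/6J by -0.17 (WSB/EiJ) to 0.40 (NZO/HlLtJ).

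In CAST/EiJ 6 of 10 members were called, all lower, against 38% of all genes (18.4% higher and 19.7% lower). These were Ugt2b5, Ugt2a3, Ugt2b34, Ugt2b35, Ugt2b36 and Ugt1a1, and the median log2 difference of the 10 members was -0.69, against -0.02 for all genes. Kupffer cell markers summed to 56.8 to 68.5 CPM in CAST/EiJ and 198 to 264 CPM in C57BL/6J. These ranges do not overlap, so a fit with marker covariates cannot fully tell strain from cell content. With Kupffer and endothelial markers as covariates, where 2686 of 14482 genes were called, Ugt2b5, Ugt2a3 and Ugt2b34 were called in edgeR. Ugt1a1, Ugt2b35 and Ugt2b36 were not (edgeR adjusted p of 0.608, 0.0703 and 0.197). The log2 difference of Ugt2b35 was then -0.73 in place of -0.85, that of Ugt1a1 -0.22 in place of -0.72 and that of Ugt2b36 -0.33 in place of -0.65. The Ugt1a1 call was also lost with unscaled library totals, where the log2 difference was -0.38 in place of -0.72 (edgeR adjusted p = 0.115), and without C57BL/6J replicate 2 or CAST/EiJ replicate 1 (edgeR adjusted p up to 0.0535). With a replicate block it was -0.61 and missed the threshold (edgeR adjusted p = 0.055).

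In PWK/PhJ 5 of 10 were called, all lower, against 26.2% of all genes (12.5% higher and 13.7% lower): Ugt1a1, Ugt1a6b, Ugt2a3 (-0.72 ± 0.18 on the log2 scale), Ugt2b34 (-0.65 ± 0.19) and Ugt2b36. The median difference of the members was -0.56, against 0.01 for all genes. Ugt2b5, at -0.16 ± 0.17, was not called (edgeR adjusted p = 0.533). Without PWK/PhJ replicate 3, 3 of the members were called, and in a fit to the 6 libraries of the pair 2 were called, Ugt1a1 and Ugt1a6b. The log2 differences of the other 3 in that fit were -0.73 (Ugt2a3), -0.66 (Ugt2b34) and -0.54 (Ugt2b36), with edgeR adjusted p of 0.066, 0.0607 and 0.127.

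In NZO/HlLtJ 6 of 10 were called, against 29.3% of all genes (13.2% higher and 16.2% lower). Ugt1a9 was higher, while Ugt1a1 (-1.53 ± 0.23 on the log2 scale), Ugt1a6b, Ugt2b5 (-1.01 ± 0.17), Ugt2b34 and Ugt2b38 were lower. The median of the members was -0.68 and that of all genes 0.01. Kupffer cell markers summed to 34.1 to 90.2 CPM there. With the covariates 3 members were called in edgeR, Ugt1a1, Ugt1a9 and Ugt2b5, where 996 of 14482 genes were called. The log2 difference of Ugt2b34 was then -0.56 in place of -0.98 (edgeR adjusted p = 0.126). Without C57BL/6J replicate 4, 4 members were called. Lower levels were called also for Ugt2a3 without C57BL/6J replicate 1 (edgeR adjusted p = 0.0238) and for Ugt2b36 with DESeq2 (adjusted p = 0.0474) or without DBA/2J replicate 4 (edgeR adjusted p = 0.0435).

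In 129S1/SvImJ 6 of 10 were called, against 20.9% of all genes (9.2% higher and 11.7% lower): Ugt1a9 was higher, and Ugt1a1, Ugt2a3, Ugt2b5, Ugt2b34 and Ugt2b38 were lower by 0.52 to 1.00 on the log2 scale. The median of the members was -0.59 and that of all genes 0.01. Kupffer cell markers summed to 40.7 to 85.7 CPM there. With the covariates only Ugt1a9 was called in edgeR, where 658 of 14482 genes were called. The log2 differences with them were -0.24 for Ugt2b34, -0.26 for Ugt2a3, -0.41 for Ugt2b5, -0.46 for Ugt1a1 and -0.67 for Ugt2b38, in place of -0.67, -0.52, -0.67, -1.004 and -0.76. Without C57BL/6J replicate 2 or 129S1/SvImJ replicate 3, 3 members were called. The Ugt2a3 call was lost without C57BL/6J replicate 2 or 4 or any 129S1/SvImJ library (edgeR adjusted p of 0.0667 to 0.208), and narrowly without any of 11 libraries of other strains (0.0502 to 0.0544). It was lost also in the fit to the 6 libraries of the pair (log2 difference -0.52, edgeR adjusted p = 0.0958), with no filter on low counts (0.0738) and with unscaled library totals, where the log2 difference was -0.17 (0.344). With a replicate block the Ugt2a3 difference was -0.57 and missed the threshold (edgeR adjusted p = 0.0563). The Ugt2b34 call was lost with unscaled totals (log2 difference -0.34, edgeR adjusted p = 0.109) and without C57BL/6J replicate 2 (0.0502) or 129S1/SvImJ replicate 3 (0.0585). Ugt2b35 was called higher with unscaled totals (log2 difference 0.54, edgeR adjusted p = 0.0411).

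In the remaining strains all members called against C57BL/6J in the main edgeR fit were Ugt1a genes. The Ugt1a and Ugt2 members were not tested against each other, and Ugt3a2, outside the 10, is described below. In DBA/2J 3 of 10 members were called (9.06% of all genes, 4.9% higher and 4.16% lower), Ugt1a9 higher and Ugt1a1 and Ugt1a6b lower, and without DBA/2J replicate 4 only Ugt1a9 was called in edgeR. The Ugt1a1 difference in DBA/2J was -0.93 on the log2 scale, and -0.71 without that library (edgeR adjusted p = 0.0649). In the fit to 6 libraries it was again -0.93 but missed the threshold (edgeR adjusted p = 0.0631), and with the covariates it was -0.59 (0.105). In A/J 2 of 10 were called (7.84% of all genes, 3.81% higher and 4.03% lower) and in NOD/ShiLtJ 2 of 10 (15.9% of all genes, 7.39% higher and 8.51% lower). In both, Ugt1a9 was higher and Ugt1a1 lower, the latter by 0.95 ± 0.23 in A/J (edgeR adjusted p = 0.00709) and 1.24 ± 0.23 in NOD/ShiLtJ (edgeR adjusted p = 0.000431). In WSB/EiJ 2 of 10 were called (13.6% of all genes, 6.88% higher and 6.76% lower), Ugt1a9 higher and Ugt1a6b lower. No Ugt2 member was called in these 4 strains against C57BL/6J by edgeR or DESeq2. At an unadjusted edgeR p under 0.05 there were 3 in DBA/2J (Ugt2b1, Ugt2b5 and Ugt2b35), 2 in NOD/ShiLtJ (Ugt2b1 and Ugt2b5), 1 in A/J (Ugt2b1) and 0 in WSB/EiJ. Calls appeared with unscaled totals in NOD/ShiLtJ (Ugt2b1 and Ugt2b36) and with the covariates in A/J (Ugt2b1) and WSB/EiJ (Ugt2b36). The medians of the members were -0.31 in DBA/2J, -0.06 in A/J, -0.15 in NOD/ShiLtJ and 0.13 in WSB/EiJ. Those of all genes were 0.01 in DBA/2J and in NOD/ShiLtJ.

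**Figure D4:**
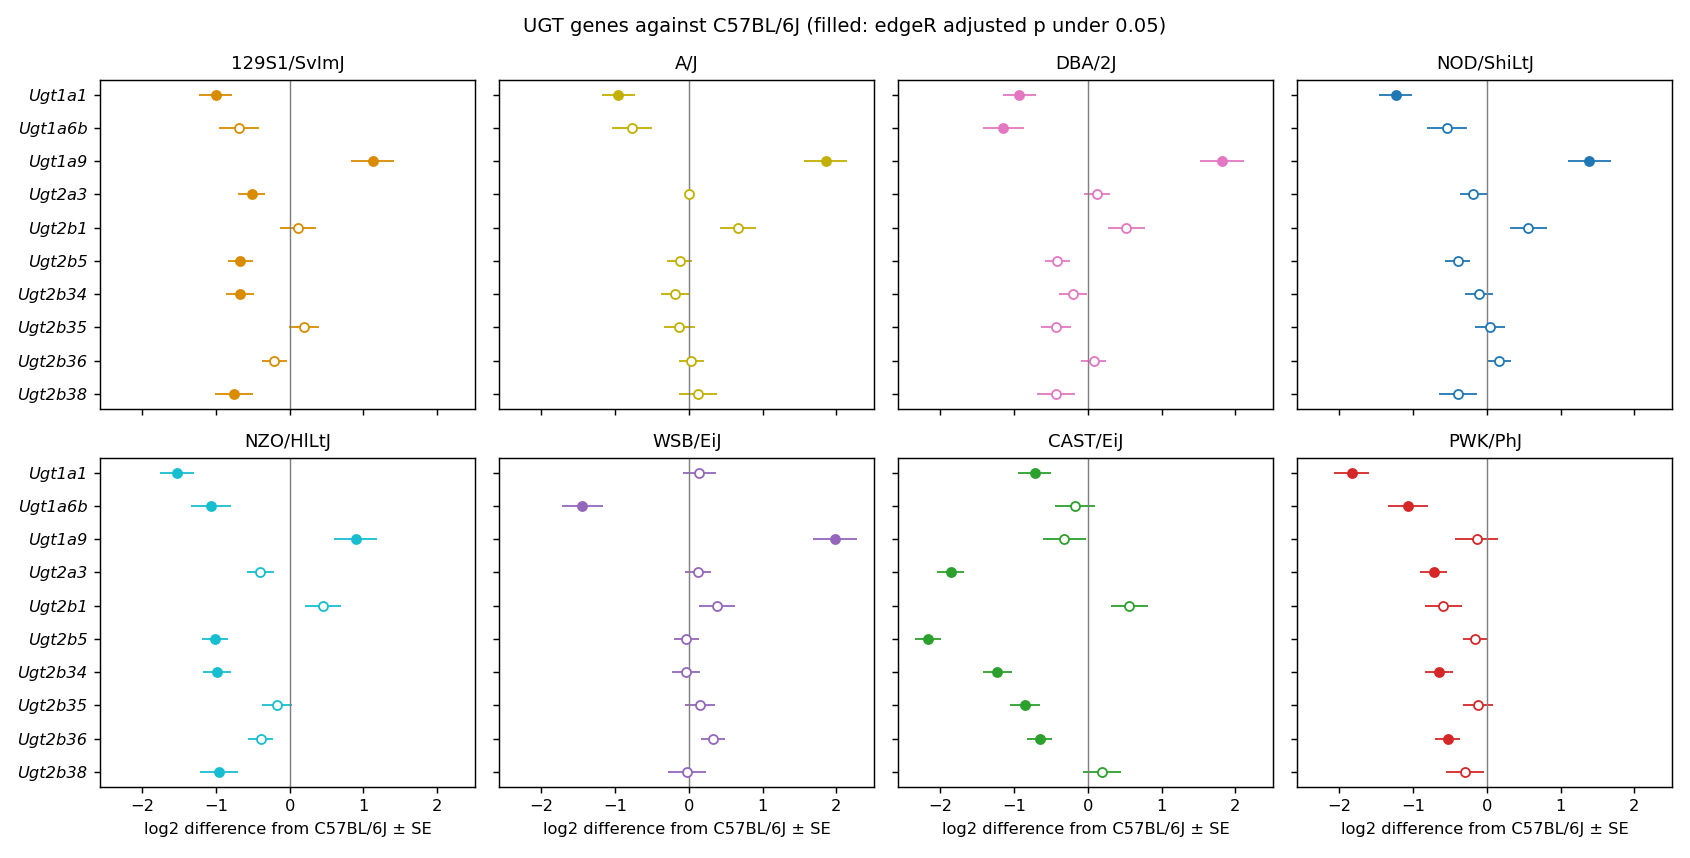
Log2 difference of each UGT gene from C57BL/6J (points) with its SE (bars; none could be computed for Ugt2a3 in A/J), a panel for each of 8 strains; filled points had an edgeR adjusted p under 0.05. All panels use the same 3 C57BL/6J libraries; Ugt1a9 lies to the right in 6 panels, and the Ugt2 genes farthest left are Ugt2b5 and Ugt2a3 in CAST/EiJ.

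Of 12 further UGT genes listed, 11 were in the table and 7 were tested, and 7 of 7 were called for the strain effect in edgeR, where 74.2% of all genes were called. Ugt1a2, Ugt1a8, Ugt2a2 and Ugt8a had too few counts to be tested, and Ugt2a1 was not analysed here. Ugt3a2, of a UGT branch that uses other sugars than glucuronic acid in humans, had the largest F among UGT genes (place 37 of all tested, edgeR adjusted p = 7.99e-18). Its mean was 388 to 639 CPM in the 6 classical strains. In the wild-derived strains its libraries had 51.4, 53.6 and 61.1 CPM in WSB/EiJ, 24.1, 26.6 and 28.5 CPM in CAST/EiJ and 14.04, 15.7 and 16.1 CPM in PWK/PhJ. The lowest library of a classical strain had 350.3 CPM. The log2 differences from C57BL/6J were -3.53 ± 0.18, -4.59 ± 0.18 and -5.38 ± 0.19 in that order (edgeR adjusted p of 9.74e-14, 1.8e-15 and 2.1e-16). Its neighbour Ugt3a1 did not share this: it had means of 142 to 263 CPM in 8 strains and 58.9 ± 6.50 CPM (SD, n = 3) in 129S1/SvImJ.

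Ugt1a10, the Ugt1a gene that starts farthest upstream, had 38.5, 47.1 and 48.4 CPM in CAST/EiJ and 1.47, 2.87 and 4.08 CPM in C57BL/6J, a log2 difference of 4.00 ± 0.50 (edgeR adjusted p = 1.05e-06). It was called higher also in WSB/EiJ, with 5.40, 7.97 and 27.3 CPM (log2 difference 2.28, edgeR adjusted p = 0.00164), and in NZO/HlLtJ (1.49, 0.0233). Ugt1a5 had 205, 446 and 509 CPM in C57BL/6J and 22.6, 23.2 and 27.8 CPM in CAST/EiJ. It was lower than in C57BL/6J in 7 strains and missed the threshold in PWK/PhJ (log2 difference -1.12 ± 0.42, edgeR adjusted p = 0.051). Both have non-whole counts in 27 of 27 libraries, so they share the uncertainty of the locus.

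**Figure D5:**
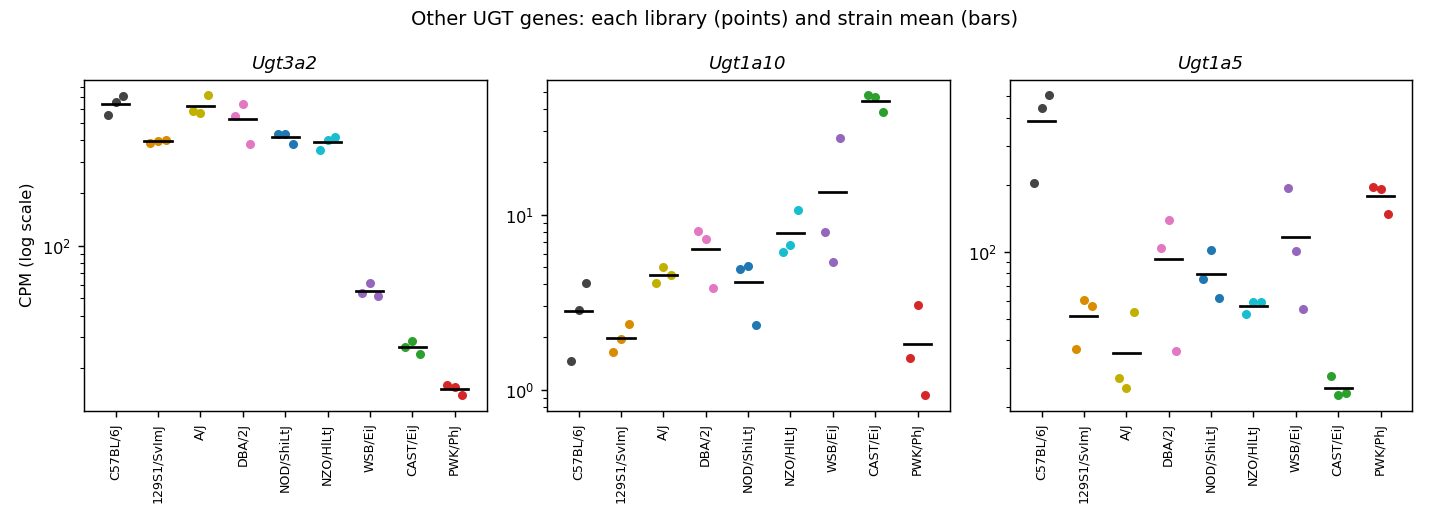
Levels (CPM, log scale) of Ugt3a2, Ugt1a10 and Ugt1a5 in the 27 libraries, as points coloured by strain, with strain means as bars. Ugt3a2 separates the 3 wild-derived strains from the 6 classical strains, Ugt1a10 is highest in CAST/EiJ, and Ugt1a5 is highest in C57BL/6J.

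Around conjugation itself, 10 of 11 genes of the glucuronide pathway list were called for the strain effect in edgeR (74.2% of all genes), the exception being Ugp2, which makes UDP-glucose. Gusb, the lysosomal enzyme that removes glucuronic acid, had the largest F of the list, with a mean of 94.6 ± 20.9 CPM (SD, n = 3) in WSB/EiJ against 25.4 to 36.2 CPM elsewhere. It was higher in WSB/EiJ than in C57BL/6J by 1.59 ± 0.20 on the log2 scale (edgeR adjusted p = 1.72e-06) and was not called in another strain against C57BL/6J. Ugdh makes UDP-glucuronic acid, the donor of the reaction. It was highest in CAST/EiJ, at 118 ± 13.3 CPM against 66.1 ± 8.76 CPM in C57BL/6J (log2 difference 0.84 ± 0.17, edgeR adjusted p = 0.00038). It was lowest in A/J at 38.2 ± 4.07 CPM.

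Slco1b2, which takes up bilirubin, Abcc2, which exports glucuronides into bile, and Abcc3, which exports them into blood, were each lower than in C57BL/6J in NZO/HlLtJ, CAST/EiJ and PWK/PhJ (3 of 3 in each by edgeR, where 16.2%, 19.7% and 13.7% of all genes were lower), by 0.52 to 1.33 on the log2 scale. For Abcc2 the means were 747 ± 125 CPM (SD, n = 3) in C57BL/6J and 408 ± 87.6, 347 ± 75.7 and 416 ± 69.6 CPM in those strains. Abcc2 was also called lower in 129S1/SvImJ, and its lowest means were 309 ± 76.4 CPM in DBA/2J and 314 ± 25.9 CPM in NOD/ShiLtJ, both called lower. Abcc3 was also called lower in WSB/EiJ. All 4 genes of bilirubin formation were called for the strain effect, again beside 74.2% of all genes. Blvrb, a biliverdin reductase, ran from 13.9 ± 1.79 CPM in A/J to 55.6 ± 9.46 CPM in 129S1/SvImJ. Hmox1, which opens the heme ring and is also expressed by Kupffer cells, was lower than in C57BL/6J (11.3 ± 1.86 CPM) in 129S1/SvImJ, NOD/ShiLtJ, NZO/HlLtJ and CAST/EiJ. Kupffer cell markers were lower in those strains too, and their part in this was not tested.

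Among 12 known regulators of UGT genes, 9 were called for the strain effect in edgeR, a share near the 74.2% of all genes, and Hnf4a, Foxa1 and Bcl6 were not. Ahr, the receptor for dioxin-like compounds, had the largest F. It was lowest in WSB/EiJ (13.3 ± 0.789 CPM, SD, n = 3), and 28.5 ± 5.65 CPM in C57BL/6J. Nr1i3 encodes the receptor CAR, known to induce Ugt1a1. It had a mean of 261 ± 50.6 CPM in C57BL/6J, 117.7 ± 21.3 in DBA/2J, 114 ± 28.7 in NZO/HlLtJ and 111 ± 28.2 CPM in PWK/PhJ, and was called lower in these 3 and in NOD/ShiLtJ and CAST/EiJ. Nfe2l2, the regulator of the oxidative stress response, was highest in WSB/EiJ at 61.6 ± 10.7 CPM against 44.7 ± 5.88 CPM in C57BL/6J (edgeR adjusted p = 0.0343).

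The members did not move as a unit. Over the 27 libraries the highest Pearson correlation of log2 CPM between members was 0.89 (Ugt2b34 and Ugt2b36) and the lowest -0.34 (Ugt1a6b and Ugt1a9). Ugt2a3 and Ugt2b5 had 0.85, and Ugt1a1 and Ugt1a9, which share a locus, had 0.13. Libraries of a strain share its genotype and all libraries share the scaling, so these are descriptions.

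Among 8013 other genes of at least 5 CPM, the gene most like Ugt2a3 over the 27 libraries was Cyp2j5, a cytochrome P450 (Pearson r 0.97). For Ugt1a9 it was Abca3 (r 0.94), for Ugt2b5 Cldnd1 (r 0.94), for Ugt2b36 Sgpl1 (r 0.93), for Ugt2b34 the carboxylesterase Ces1c (r 0.93) and for Ugt1a1 Rdh10 (r 0.85). For Ugt2b1 it was the carboxylesterase Ces1b (r 0.84), for Ugt2b38 Sypl (r 0.82) and for Ugt2b35 Cpox, an enzyme of heme synthesis (r 0.81). The second genes were Esyt1 for Ugt2a3, Rnaset2a for Ugt1a9, Impad1 for Ugt2b5, Cd1d1 for Ugt2b36, M6pr for Ugt2b34 and Iqgap2 for Ugt1a1. They were Ganc for Ugt2b1, Met for Ugt2b38 and Slc10a5 for Ugt2b35. By Spearman correlation the first gene was the same for 3 of 10 members (Ugt1a9, Ugt2a3 and Ugt2b34), and over the 9 strain means for those and Ugt2b35.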

How the data were processed

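RNA of hepatocytes was isolated with a column kit and DNase, and libraries were made from polyadenylated RNA, per the labels' protocols. The authors deposited 1 table of estimated counts per Ensembl gene, not scaled to depth. The submitters' processing notes name FastQC 0.11.5, DESeq2 and the builds GRCm38 and mm10. The aligner, the counting program and the use of strain-specific genomes are not given in the sources used here, and either could change counts of divergent strains or near-identical genes. All columns were matched to samples by their labels.

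Symbols, positions and transcripts came from GENCODE M21, which named 42462 of 43346 genes, and promoters from RefSeq. The deposited estimated counts were rounded. Genes were kept with filterByExpr, scaled with TMM factors (0.722 to 1.226) and fitted with edgeR 4.0.16 (R 4.3.3, limma 3.58.1) as a quasi-likelihood model over 27 libraries with strain as the factor. P-values were adjusted by Benjamini and Hochberg over 14482 genes and called under 0.05. Standard errors were derived from the F statistic. Locus sums, shares and correlations (log2 CPM, prior count 2) are descriptions. The model code was tested on simulated data. Within strains no 2 libraries agreed within sampling noise. The kit's name states no strand, so overlapping antisense genes are uncertain.

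The 10 members are all described. From the lists of further UGT genes, pathway genes and regulators, those called with the largest F were named (up to 3 a list), with others needed to account for a list. The genes most like each member were the 2 with the highest correlation, without predicted genes and pseudogenes. Those of Ugt1a6b are not reported here. The members and lists were chosen with earlier results of these data known. Alternatives were DESeq2 1.42.0, median-of-ratios factors, other filters on low counts, no rounding, the replicate number as a block, marker covariates, fits to 6 libraries and each library left out. The marker covariates were the mean log2 CPM of the Kupffer list and of the endothelial list. Where these markers part the strains compared, that fit cannot tell strain from cell content. Unscaled library totals were added after the data were seen.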

Additional observations from a re-analysis of the deposited data

How the results depend on the processing

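The strain effect was called for 10 of 10 members in each alternative and with any library left out, except 9 in the fit with a replicate block, where Ugt2b35 had an edgeR adjusted p of 0.0557. The numbers did not pair the libraries: deviations of same-numbered libraries correlated over 0.1 in 17 of 76 pairs (median 0.02), and 7 of 27 libraries correlated best with their own number. In that block fit, 29 of the 32 calls against C57BL/6J were kept, with 4 members called in 129S1/SvImJ (Ugt2a3 at 0.0563 and Ugt2b38 at 0.0631 were lost) and 5 in CAST/EiJ (Ugt1a1 at 0.055 was lost). DESeq2 kept 32 of the 32 and added 2, median-of-ratios factors and no rounding changed none, and no call reversed under any alternative. With marker covariates 20 of the 32 calls were kept, with 1 member called in 129S1/SvImJ, 3 in NZO/HlLtJ and 3 in CAST/EiJ, and 8 neighbouring pairs. Unscaled library totals kept 27 of the 32 calls, lost 5 (Ugt2a3, Ugt2b34 and Ugt2b38 in 129S1/SvImJ, Ugt2b38 in NZO/HlLtJ and Ugt1a1 in CAST/EiJ) and added 6. They gave 4 members in NOD/ShiLtJ, 12 neighbouring pairs and a Ugt2 ratio of WSB/EiJ to CAST/EiJ of 1.43. The 6-library fit gave 2 members in PWK/PhJ. Summing the members only gave a Ugt1a ratio of WSB/EiJ to PWK/PhJ of 3.75. The cause of these changes was not tested.

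With each library left out in turn, 22 of the 32 calls were kept throughout, and 15 were kept also under all other settings. Members called ranged from 3 to 7 in 129S1/SvImJ, 2 to 3 in A/J, 1 to 3 in DBA/2J, 2 to 2 in NOD/ShiLtJ, 4 to 7 in NZO/HlLtJ, 2 to 2 in WSB/EiJ, 5 to 7 in CAST/EiJ and 3 to 6 in PWK/PhJ. The lowest counts came without C57BL/6J replicate 2 or 129S1/SvImJ replicate 3 (129S1/SvImJ), DBA/2J replicate 4 (DBA/2J), C57BL/6J replicate 4 (NZO/HlLtJ) and PWK/PhJ replicate 3 (PWK/PhJ). Neighbouring pairs called ranged from 2 (without C57BL/6J replicate 2) to 6, the Ugt1a ratio from 2.78 to 3.34 and the Ugt2 ratio from 1.91 to 2.16. Over all genes, the covariates lowered the number called from 3026 to 658 in 129S1/SvImJ, 2302 to 1220 in NOD/ShiLtJ, 4249 to 996 in NZO/HlLtJ and 5506 to 2686 in CAST/EiJ. The 6-library fit lowered it from 1135 to 624 in A/J and 3797 to 2265 in PWK/PhJ. Without C57BL/6J replicate 4 it was 1492 in 129S1/SvImJ, 1278 in NOD/ShiLtJ and 2288 in NZO/HlLtJ. Ugt2b38, at 319.8 to 942 estimated counts per library, was the least deeply covered member.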

Other observations

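Ugt2b37, which shares windows of 100 bases with Ugt2b5 and Ugt2b38, had 1.60, 1.66 and 1.74 CPM in 129S1/SvImJ and 32.3, 40.4 and 41.0 CPM in CAST/EiJ. In WSB/EiJ its libraries had 2.62, 8.83 and 41.8 CPM. It was named after its values were seen.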
